A study of Danio rerio with 3 samples.

Results

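Continuous light over 3 days was compared with a normal light-dark cycle by the mRNA content of the adult zebrafish brain, read from 1 array of sleep-deprived fish and 1 array of naive fish. Every gene with a named probe set was a candidate: probe sets with exactly 1 gene symbol were averaged per gene, which gave 19260 genes, and the 17958 genes whose highest array reached a signal of 3.45, the lower quartile of all deposited values, were kept. At that dim limit si:dkey-1k23.3, with a highest signal of 3.47, was just inside and mespab, at 3.45, just outside. All fish were 6 months old and kept at 28 °C. The naive group had a daily cycle of 14 h light and 10 h dark, and the sleep-deprived group was held in light for 24 h a day, with 0 h dark, over 3 days. The remaining array came from fish trained in inhibitory avoidance (fear conditioning), and the sources used here do not state their light regime. This array is used below as a further level, and it also enters the filter on dim genes and the splits by mean signal. The labels name no strain, sex or transgene. The sources used here also do not state whether an array holds 1 brain or a pool, or the clock time of sampling. With 1 array per group there is no replicate check, so each value below describes these arrays, no test was made, and their number limits the precision.

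Zebrafish are active by day and sleep at night, and light kept on through the night is a common way to withhold sleep from them. Light itself acts on the fish brain, through the pineal organ and through opsins in deep brain cells, and it resets the clock of most tissues, so effects of extended light and of lost sleep cannot be told apart in this design. In the vertebrate brain, genes that respond to neuronal firing, to energy use and amino acid supply, to glucocorticoids and to immune signals are the ones most often followed after sleep loss. In a bulk sample of this kind, fewer cells of a type and less RNA per cell cannot be told apart.

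All signals are log2 values as deposited, and for a gene named with 3 levels the order is naive, fear-conditioned and sleep-deprived. The tissue label was checked against defining markers. Neuronal genes were bright and alike on the arrays: the RNA-binding protein gene elavl3 stood at 10.20, 10.20 and 10.22, and the synaptic gene snap25a at 11.98, 11.90 and 11.98. The myelin gene mbpa read 11.76, 11.86 and 11.38. Muscle and pigment cell markers were dim, with myhz2 at 2.68 on each array, pmela at 4.28 and tyrp1b at 4.67. The skin keratin gene krt5 read 6.97, 8.79 and 6.67, and the collagen gene col1a1a 5.41, 8.07 and 5.55, so for both the fear-conditioned array was furthest from the others. The epithelial markers cdh1 and epcam also differed between the 2 arrays compared here, by -1.26 and -0.57, and are given with the skin list below.

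Of the 17958 genes, 5557 (30.9%) were lower on the sleep-deprived array by any amount, 4445 (24.8%) were higher and 7956 (44.3%) had exactly the same deposited value. The median difference, sleep-deprived minus naive, was 0 and the 5th and 95th percentiles were -0.41 and 0.23, so the spread was wider on the lower side. Exact equality was most common among dim genes: it held when the genes were split by mean signal into 4 equal bins, for 64.3% of the dimmest and 26.9% of the brightest bin. It also held for very bright genes, such as ctsf, which read 12.06 on each array. Whether processing before deposit made such ties was not tested, so an equal value or a median of 0 does not show an unchanged level. At least 2-fold lower were 120 genes, or 0.668%, and at least 2-fold higher 17 genes, or 0.0947%. At 1.5-fold the counts were 436 lower (2.43%) and 87 higher (0.484%). These 4 percentages are the background against which the counts within gene lists are given.

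The lower genes came from every level of signal. From the dimmest to the brightest bin, 20, 38, 28 and 34 genes passed the 2-fold limit in the lower direction, and 7, 6, 2 and 2 genes in the higher one. The naive signal of the 120 lower genes ran from 3.82 to 11.3 with a median of 7.36, and 6 of them were below the dim limit on the sleep-deprived array. Probe sets without a gene name did not share this imbalance. Among 37914 probe sets without a gene name 628 were lower and 829 higher, and among the 21609 of these with a mean signal at or above 4.99, the median of all values, 197 were lower and 237 higher. The named probe sets of that brightness numbered 15392, with 113 lower and 15 higher. Just inside the 2-fold limits were si:dkey-163m14.2 at -1.003 and slc25a22b at 1.01, and just outside were kdr at -0.998 and pdxka at 0.996.

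**Figure D1:**
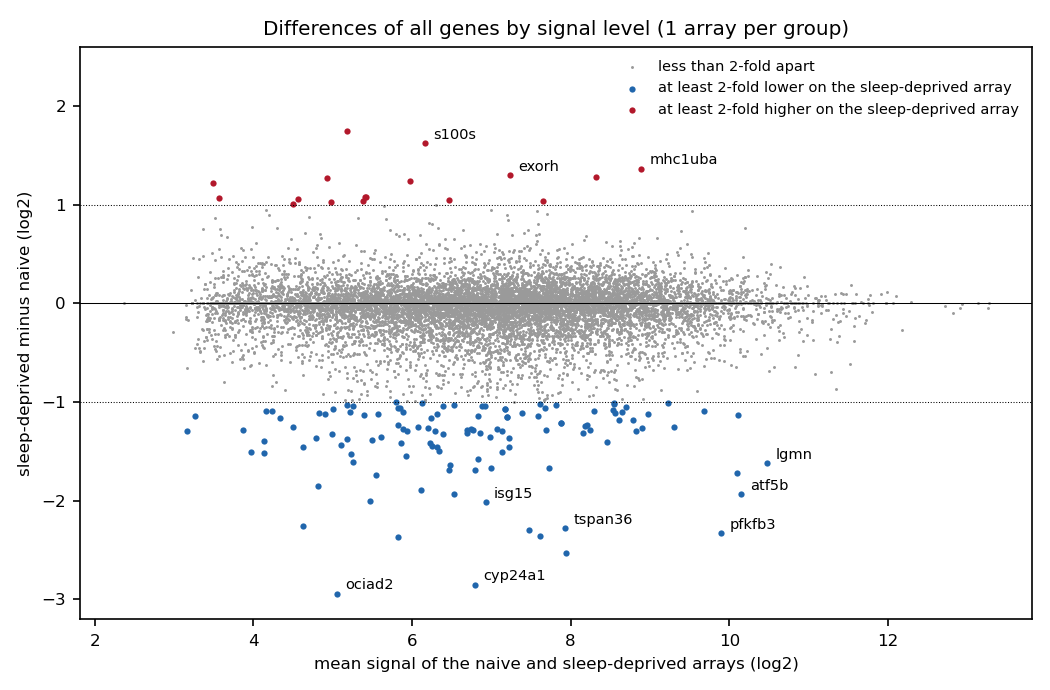
The difference of each of 17958 genes, sleep-deprived minus naive in log2 (vertical axis), against the mean signal of the 2 arrays in log2 (horizontal axis), with blue points for the 120 genes at least 2-fold lower, red points for the 17 at least 2-fold higher and dotted lines at 2-fold. Blue points lie at all signal levels, from dim to bright, and the row of points at 0 holds the 7956 genes with equal values.

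Genes that neurons and other cells switch on after stimulation were lower as a group, but not uniformly. These are transcription factors and regulators whose mRNA rises soon after calcium or growth factor signals. In the Fos and Jun family, whose proteins pair to form the AP-1 transcription factor, 15 members were measured. Of these, 2 were past 2-fold and 4 past 1.5-fold in the lower direction, with a list median of -0.28. By any amount 10 were lower, 3 higher and 2 equal, and the most positive difference was 0.40. The level of fosab was 8.80, 9.23 and 7.56, and that of fosb 6.44, 6.75 and 5.34, so for both the sleep-deprived array was the lowest. The Jun gene junba read 7.39, 7.27 and 6.50, a difference of -0.89, whereas its duplicate junbb, at 5.68, 5.63 and 5.49, differed by -0.19. The Fos-like gene fosl1a, at 6.65, 7.88 and 5.79, was lowest in the sleep-deprived and highest in the fear-conditioned brain. The duplicate of fosab, fosaa, read 7.11, 7.30 and 6.95. Outside the list, the Jun gene june read 6.55, 6.57 and 7.07, higher than naive by 0.52.

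Among 16 other activity-induced regulators, 13 were below their naive value by any amount, 3 at least 2-fold and 6 at least 1.5-fold, with a median of -0.17. The orphan nuclear receptor gene nr4a1 had the largest difference among them, with levels of 6.05, 6.05 and 4.45, 3.04-fold lower than naive. Its relative nr4a3 stood at 6.71, 6.96 and 6.08. The depolarization-induced factor npas4a read 9.53, 9.36 and 8.27. Its relative npas4b, which is not in the list, read 5.56, 5.97 and 5.72 and so was not lowest on the sleep-deprived array. The third member past 2-fold, csrnp1a, read 6.57, 6.54 and 5.16, 2.66-fold lower than naive, and csrnp1b differed by -0.41. The zinc-finger Egr genes also parted: egr4, at 7.70, 7.19 and 6.98, was 1.65-fold lower than naive, and egr1, at 9.56, 9.56 and 9.65, was slightly above it. The antiproliferative gene btg2 was at 8.22, 7.88 and 7.47. Outside the list, salt-inducible kinase 1, sik1, which restrains CREB coactivators, read 8.82, 9.12 and 7.59, 2.35-fold lower than naive.

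Dual-specificity phosphatase and Sprouty-type genes, some of them brakes induced by the MAP kinase pathway that they restrain, were lower too. Of 18 measured phosphatase, Sprouty and Spred genes, 13 were lower by any amount, 3 at least 2-fold and 4 at least 1.5-fold, and 1 was higher by any amount. The dual-specificity phosphatase gene dusp2 was furthest apart, at 7.34, 7.12 and 6.03, 2.48-fold lower than naive. Its relative dusp1 stood at 6.83, 7.08 and 5.57, and dusp22b at 7.71, 7.72 and 6.44, 2.39-fold and 2.41-fold lower than naive. The gene dusp22a, the duplicate of dusp22b, differed by -0.32. The receptor tyrosine kinase inhibitor gene spry4 was at 7.35, 8.04 and 6.54, and its relative spry2 at 7.67, 7.64 and 7.19. The further members dusp4, dusp6 and dusp5, had differences of -0.47, -0.42 and -0.31. Among Myc family genes only mych, at 6.70, 7.70 and 5.44, was past 2-fold, and the 13 measured members had a median of 0.

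Furthest apart among genes of energy metabolism was pfkfb3, which makes the activator of phosphofructokinase and so speeds glycolysis. Its signal was 11.06 on the naive, 11.29 on the fear-conditioned and 8.73 on the sleep-deprived array, 5.02-fold lower than naive. It belongs to a list of 43 hypoxia-response genes, which are driven by hypoxia-inducible factors, and 31 of these 43 were lower by any amount, 2 higher and 10 equal. At least 2-fold lower were 6, or 14.0% of the list, and at least 1.5-fold lower were 12, or 27.9%, beside 0.668% and 2.43% of all genes. The list median was -0.25.

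Besides pfkfb3, the members past 2-fold were hif1al2, egln3 and vegfaa, with igfbp1a and slc2a1b given below. Among the measured genes for subunits of hypoxia-inducible factors, hif1al2 alone was past 2-fold. The hypoxia-inducible factor alpha-like gene hif1al2 read 7.94, 7.08 and 6.49. The oxygen-sensing prolyl hydroxylase gene egln3, itself a target of the pathway, read 6.58, 6.41 and 5.28, 2.46-fold lower than naive. The angiogenic ligand gene vegfaa stood at 7.78, 7.92 and 6.63, and its duplicate vegfab at 8.75, 8.49 and 8.17. Both Vegf genes were therefore lowest in the sleep-deprived brain, vegfaa by 2.22-fold and vegfab by just under the 1.5-fold limit. The stress-induced inhibitor of mTOR ddit4 was at 8.25, 8.42 and 7.55.

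Of 44 endothelial and mural markers 22 were lower by any amount, 3 higher and 19 equal, with 3 past 1.5-fold and 0 past 2-fold in the lower direction. Their median of -0.01 turned to 0.04 when each array was centred on its own median, and the mean level of the list was 6.61 on the naive and 6.45 on the sleep-deprived array. The Vegf receptor gene kdr was at 7.79, 7.35 and 6.79, just short of 2-fold, and its relative kdrl at 8.07, 7.79 and 7.52. Named because they were past 2-fold, and not members of that list, are 4 further genes with roles in vessels. The vessel-destabilizing ligand gene ANGPT2 read 5.39, 5.85 and 4.28, and acvrl1, a BMP receptor gene of arterial endothelium, 8.13, 7.88 and 7.10. The platelet-derived growth factor gene pdgfba, which recruits mural cells, read 5.47, 4.46 and 4.11, and the chemokine gene cxcl12b 9.73, 9.48 and 8.72. The part of vessel markers in the Vegf and hypoxia values was not tested.

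Glucose handling showed single genes rather than the whole pathway. The glucose transporter genes slc2a3b, at 7.33, 7.44 and 6.05, and slc2a1b, at 9.06, 9.49 and 8.03, were past 2-fold, while slc2a3a differed by -0.01. Pyruvate dehydrogenase kinase pdk2b, which inactivates pyruvate dehydrogenase, read 7.50, 6.28 and 5.57, 3.81-fold lower than naive. The glycogen-targeting phosphatase subunit ppp1r3c2a was at 5.74, 5.92 and 3.90, and its duplicate ppp1r3c2b was equal on the naive and sleep-deprived arrays. The arrestin-like gene txnipa, whose product lowers glucose uptake, was at 9.11, 8.70 and 8.00. Across 56 genes of glucose uptake, glycolysis and pyruvate use, 4 passed 2-fold and 5 passed 1.5-fold in the lower direction. The 4 were pfkfb3, pdk2b, slc2a3b and slc2a1b, and the fifth past 1.5-fold was hk2, at 6.65, 6.80 and 5.68. The genes ppp1r3c2a and txnipa are not among the 56. The median of the 56 genes, -0.01, turned to 0.04 with centring. Oxidative phosphorylation, with 81 measured subunits, had 27 lower, 26 higher, 28 equal, a median of 0 and 1 member past 1.5-fold, cox4i1l at 7.21, 6.69 and 6.36.

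In the insulin-like growth factor system, both binding protein 1 duplicates were low: igfbp1a read 7.51, 8.54 and 6.19, and igfbp1b 6.54, 5.75 and 5.55, so they shared the lowest array but not the order of the other two. The ligand gene igf1 was at 7.38, 7.16 and 6.51, and igf2b at 9.31, 8.74 and 8.67. The binding protein gene igfbp7 was at 8.03, 7.95 and 7.23. Of 24 measured members 5 passed 1.5-fold in the lower direction and 0 in the higher one. The list median of -0.04 turned to 0.01 with centring.

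Genes of the integrated stress response, by which cells adapt translation and amino acid supply, were lower together. This response runs through phosphorylated eIF2 and the factors Atf4 and Atf5. Of 37 measured members 32 were lower by any amount, 0 were higher and 5 were equal, with a median of -0.28. At least 2-fold lower were 4 (10.8%) and at least 1.5-fold lower 8 (21.6%). The transcription factor gene atf5b read 11.12, 11.07 and 9.19, 3.82-fold lower than naive, while its duplicate atf5a read 8.61, 8.69 and 8.60. The pseudokinase gene trib3, a target and brake of the response, read 7.64, 7.69 and 5.96. For both atf5b and trib3 the naive and fear-conditioned levels were within 0.05 of each other and the sleep-deprived level stood apart. The factor gene ddit3 was at 7.85, 7.72 and 7.10.

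The same list holds genes of amino acid uptake and synthesis. The heavy chain of the amino acid exchangers, slc3a2a, read 9.20, 8.52 and 8.02, and its duplicate slc3a2b 8.82, 8.84 and 8.13. A light chain that pairs with it, slc7a8a, which is not in the list, read 10.96, 10.41 and 9.24, 3.29-fold lower than naive, and its duplicate slc7a8b 7.26, 7.19 and 6.69. Serine synthesis genes followed: psat1 was at 9.16, 8.96 and 7.76 and phgdh at 7.91, 7.91 and 7.17. Outside the list, also past 2-fold were tdh, a threonine dehydrogenase gene, at 9.19, 9.12 and 8.09, and the cystathionine synthase gene cbsa at 4.78, 4.88 and 3.68. The folate gene mthfd1l, likewise outside it, averaged 5.69, 6.05 and 4.66, but 1 of its 2 probe sets differed by -2.06 and the other by 0. The translation kinase gene mknk2b, which phosphorylates eIF4E and is not in the list either, read 10.68, 10.51 and 9.54.

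The unfolded protein response, which shares the eIF2 kinase branch, did not stand with it. Of 34 measured genes 6 were lower, 10 higher and 18 equal, with 0 past 1.5-fold, and the largest differences were -0.42 for derl3 and 0.39 for dnajb11. The chaperone list of 54 heat shock genes had a median of 0 and 1 gene past 2-fold, hspb1, a small heat shock protein gene, at 9.06, 8.57 and 8.04.

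**Figure D2:**
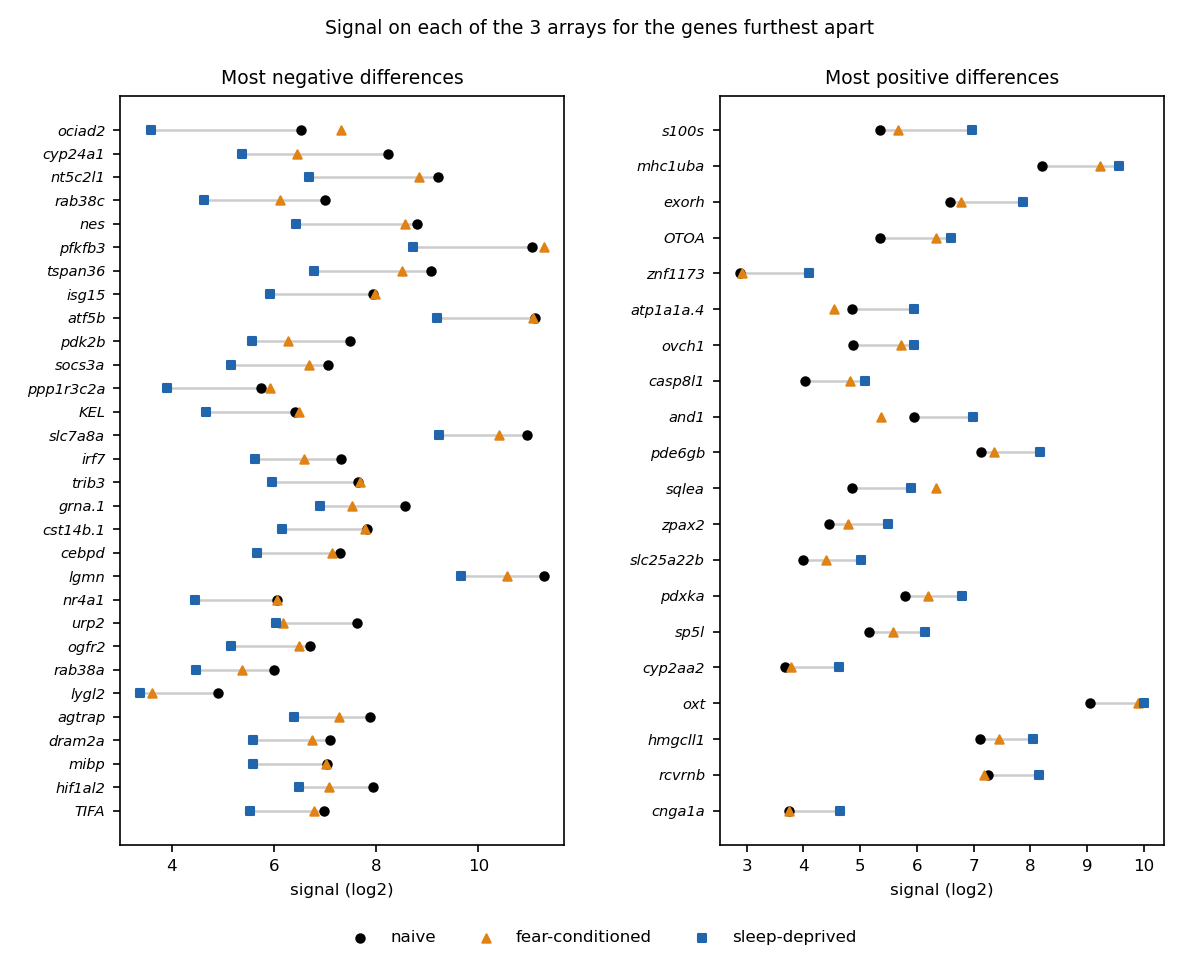
Signal in log2 on each of the 3 arrays for the 30 genes with the most negative and the 20 with the most positive difference between the sleep-deprived (blue squares) and naive (black circles) arrays, with the fear-conditioned array as orange triangles. For atf5b, trib3 and nr4a1 the triangle lies on the circle, and for cyp24a1, rab38c and pdk2b it lies between circle and square.

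Some oxidative stress regulators were low while most of the other genes of their pathway were within 1.5-fold. The list of 52 genes is built around Nrf2, the factor that turns on antioxidant genes, and both of its zebrafish copies were past 2-fold: nfe2l2a was at 8.21, 7.85 and 7.15 and nfe2l2b at 4.84, 5.16 and 3.44. The last value lies just under the dim limit. The small Maf partner gene mafk read 6.93, 6.87 and 5.64, and nfe2l1a, a relative of Nrf2, 5.79, 5.99 and 4.99. Other regulators were closer to naive: nfe2l1b, the brighter duplicate of nfe2l1a, read 8.66, 8.82 and 8.77, and the small Maf gene maff 8.43, 8.72 and 8.23. The only other member past 2-fold was the glutathione transferase gene mgst1.1, at 4.91, 4.28 and 3.75, whereas mgst3a was higher, at 7.09, 8.15 and 7.84. In all 29 members were lower, 5 higher and 18 equal, and the median of -0.02 turned to 0.02 with centring. Of 48 genes of DNA damage response and repair, 1 was past 2-fold, the stress-induced gene gadd45ba at 7.71, 7.57 and 6.64.

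Cytokine signalling through Jak and Stat proteins showed its feedback gene furthest apart. The suppressor gene socs3a read 7.06, 6.68 and 5.17, 3.72-fold lower than naive, while socs3b differed by -0.26. The factor gene stat3 was at 8.35, 8.48 and 8.03 and the survival kinase gene pim1, a Stat target, at 9.12, 9.09 and 8.30. The C/EBP factor gene cebpd, induced by the same cytokines, read 7.30, 7.13 and 5.66, and cebpb 6.73, 6.76 and 6.28. Over 39 members of the cytokine list 18 were lower, 7 higher and 14 equal, with 1 past 2-fold and 3 past 1.5-fold in the lower direction and a median of 0.

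Interferon-response genes, which cells use against viruses, were lower in 25 of 40 and higher in 3, with a median of -0.22. At least 1.5-fold lower were 7, or 17.5%. The ubiquitin-like modifier gene isg15 stood at 7.93, 7.98 and 5.92, 4.03-fold lower than naive. The regulatory factor gene irf7 was at 7.31, 6.59 and 5.62, irf3 at 5.36, 5.59 and 4.70, and stat2 at 8.52, 8.18 and 7.66. The antiviral GTPase genes mxe, at 5.89, 5.61 and 4.96, and mxa, at 5.99, 5.11 and 5.14, were lower than naive on both other arrays. Outside the list, ifi27.2 was past 2-fold, at 6.19, 5.82 and 4.80.

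Antigen presentation split by gene. The class I gene mhc1uba was higher on the sleep-deprived array, at 8.21, 9.22 and 9.57, and mhc1zba lower, at 9.22, 8.20 and 8.38, and for both the fear-conditioned level lay on the side of the sleep-deprived one. Class I genes are close in sequence and vary between individual zebrafish, so which copies these probe sets read is uncertain. The proteasome activator genes psme1 and psme2 were at -0.61 and -0.44. In the class II list the invariant chain genes cd74a, at 11.84, 11.52 and 11.22, and cd74b, at 9.25, 8.71 and 8.48, were lower, and 4 of 6 members were lower with 2 equal. Complement genes had 1 of 28 past 2-fold, c4b at 7.78, 7.36 and 6.49, with c4 at 9.0, 8.54 and 8.13 and the properdin gene cfp at 6.17, 6.02 and 5.28.

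Macrophage and microglial genes showed the lowest median of all 66 lists, -0.48. Of 41 measured members 35 were lower by any amount, 0 higher and 6 equal. At least 2-fold lower were 5 (12.2%) and at least 1.5-fold lower 16 (39.0%), and the mean level of the list was 7.19 on the naive, 6.92 on the fear-conditioned and 6.68 on the sleep-deprived array. The asparaginyl endopeptidase gene lgmn read 11.29, 10.56 and 9.66, 3.08-fold lower than naive. The progranulin gene grna.1 was at 8.56, 7.54 and 6.89, and the lectin-binding protein gene lgals3bp.1 at 9.47, 8.96 and 8.17. For these 3 genes the fear-conditioned level lay between the other two. Named because they were past 2-fold, and not counted in the list, are receptor genes of scavenging cells. MARCO was at 6.36, 5.76 and 5.29. It was written in the list as marco but not matched to the symbol in capitals, so the counts above leave it out. The mannose receptor gene mrc1b was at 7.41, 6.96 and 6.37, while mrc1a, at 7.49, 7.48 and 7.27, differed by -0.22. The scavenging chemokine receptor gene cxcr3.3 was at 7.66, 7.87 and 6.30. Both arms of the apolipoprotein E pair were measured: apoeb read 8.84, 8.38 and 7.75, and apoea 4.23, 4.01 and 4.23.

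Lysosomal enzymes were lower beside the macrophage markers. Of 52 measured lysosome genes 38 were lower, 4 higher and 10 equal, 4 (7.69%) passed 2-fold and 13 (25%) passed 1.5-fold in the lower direction, with a median of -0.14. The macrophage and lysosome lists overlap, so their counts are not separate. Shared members include the protease genes lgmn, ctsla, ctsba, ctsz and ctsc, at -1.62, -1.28, -0.97, -0.75 and -0.73. The cathepsin gene ctsla read 8.33, 7.96 and 7.05, the aspartyl protease gene ctsd 9.38, 8.94 and 8.20, and the carboxypeptidase gene ctsa, whose product shields other lysosomal enzymes, 8.81, 8.50 and 7.50. In each of these the order was naive, fear-conditioned, sleep-deprived. The genes fuca1.1, ctbs, glb1l, dram1 and dram2a are outside the list and are named only because they were past 2-fold. Sugar-cleaving enzyme genes among them were fuca1.1, a fucosidase, at 6.94, 6.46 and 5.52, and ctbs, a chitobiase, at 7.41, 7.12 and 6.27. The beta-galactosidase-like gene glb1l was at 7.04, 6.54 and 6.02. The membrane protein genes dram1 and dram2a, which sit on lysosomes, were at 6.81, 6.73 and 5.65 and at 7.09, 6.75 and 5.59, while dram2b differed by -0.16. The part of macrophage number or content in the lysosomal values was not tested.

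Degradation systems that every cell runs had list medians of 0 and 0 genes past 1.5-fold. Of 36 autophagy genes 17 (47.2%) were lower, 2 (5.56%) higher and 17 equal, with the receptor gene sqstm1 furthest, at -0.38. The 36 proteasome subunits had 9 (25%) lower, 10 (27.8%) higher and 17 equal. Over all genes 30.9% were lower and 24.8% higher, so autophagy genes leaned to the lower side by small amounts.

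Some genes best known from pigment cells were also low, while the melanosome genes given beside them were dim. The list of 36 had 4 members past 2-fold and 9 (25%) past 1.5-fold in the lower direction, with 14 lower, 6 higher and 16 equal and a median of 0. The small GTPase gene rab38c, which guides cargo to lysosome-related organelles, read 7.0, 6.11 and 4.64, 5.15-fold lower than naive, and rab38a 6.00, 5.36 and 4.47. The tetraspanin gene tspan36 read 9.07, 8.51 and 6.79. The glycoprotein gene gpnmb, which macrophages also express, was at 6.28, 5.61 and 4.93. The related GTPase genes rab32a, at 5.82, 5.69 and 4.85, and rab27a, at 7.4, 7.49 and 6.56, were past 1.5-fold. The melanosome genes pmela and tyrp1b had equal values on the 3 arrays and dct differed by -0.08, all 3 with signals below 4.99, the median of all values. Signals this dim, with ties, do not show whether these genes were unchanged. The part of macrophages or pigment cells in the values of the GTPase genes was not tested.

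**Figure D3:**
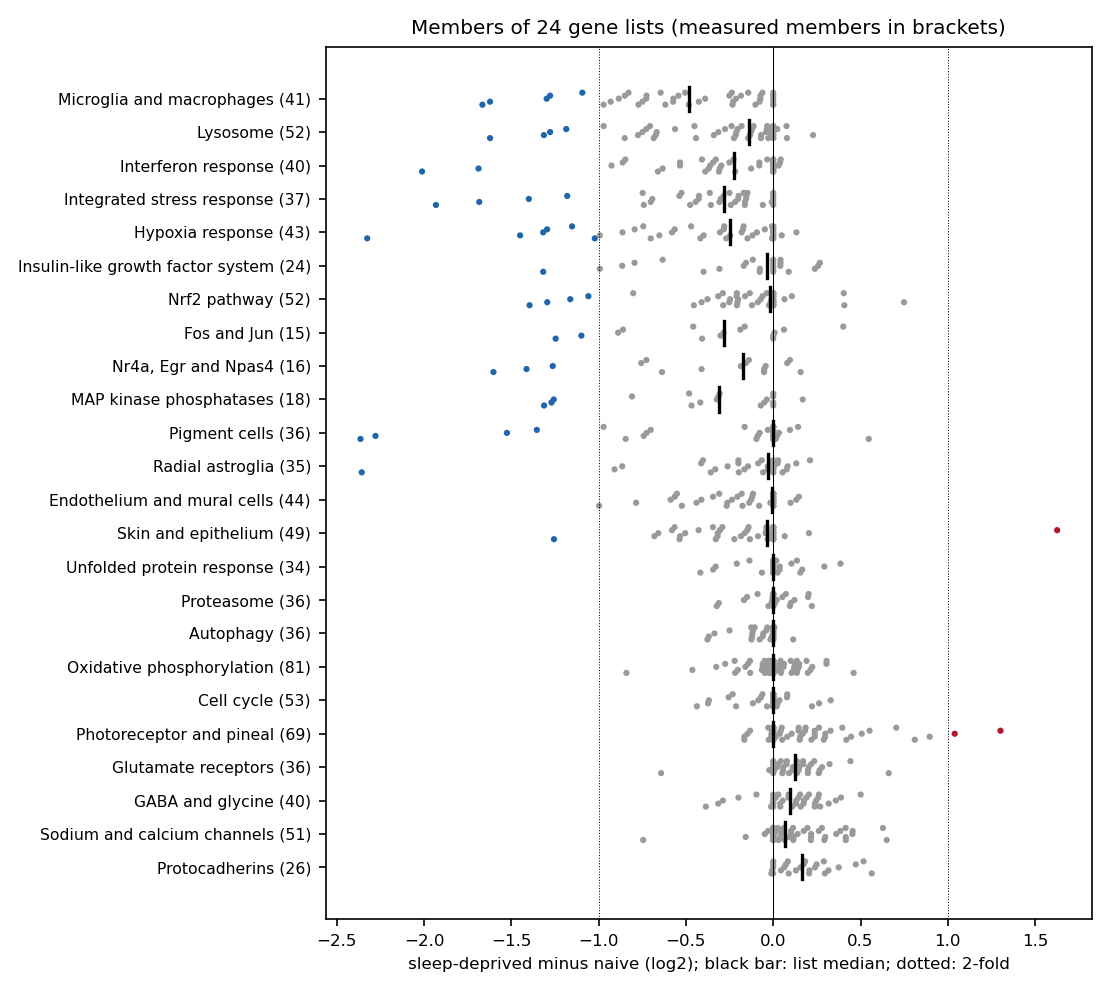
Difference of each measured member, sleep-deprived minus naive in log2 (horizontal axis), for 24 gene lists (rows, with the number of members in brackets), with the list median as a black bar, blue points at least 2-fold lower and red points at least 2-fold higher. The macrophage list has 35 of 41 points left of 0 and none right of it, the integrated stress response list 32 of 37 left, and the glutamate receptor list 30 of 36 right.

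Glial genes differed one by one. In radial astroglia, the stem-like glia of the fish brain, the intermediate filament gene nes read 8.79, 8.56 and 6.43, and gfap 8.30, 9.05 and 7.39, so gfap was also far above naive on the fear-conditioned array. The brain aromatase gene cyp19a1b was at 11.78, 11.67 and 10.91, whereas the glutamine synthetase gene glulb and the gap junction gene gja1b differed by less than 1.5-fold, at -0.40 and -0.36. Of 35 radial glial genes 3 were at least 1.5-fold lower, and the median of -0.03 turned to 0.01 with centring. Among 21 oligodendrocyte genes 14 were lower and 3 higher, with a median of -0.08. The aspartoacylase gene aspa, which releases acetate for myelin lipids, read 9.53, 9.01 and 8.41, and the myelin tight junction gene cldn11a 8.22, 8.17 and 7.49.

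Lipid and metal transport held further single genes. The cholesterol exporter genes abca1b, at 7.57, 7.22 and 6.72, and abca1a, at 9.30, 8.97 and 8.78, were lower, and the sterol synthesis genes sqlea, cyp51 and hmgcs1 were higher. The squalene epoxidase gene sqlea read 4.87, 6.34 and 5.90, cyp51 8.00, 8.66 and 8.45, and hmgcs1 7.21, 7.74 and 7.65, so these 3 were higher than naive on the fear-conditioned array too. The desaturase gene scd was at 8.04, 7.79 and 7.14. The zinc importer gene slc39a1 was at 7.77, 7.87 and 6.62, the zinc exporter gene slc30a8 at 5.96, 5.80 and 5.15, and the transferrin receptor gene tfr1a at 7.93, 8.12 and 7.19. In the cholesterol list of 41 genes 12 were lower, 15 higher and 14 equal.

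Among hormone genes the largest difference was in cyp24a1, which breaks down active vitamin D and is induced by it. It read 8.22, 6.45 and 5.37, 7.21-fold lower than naive on the sleep-deprived and lower than naive on the fear-conditioned array as well. The receptor genes vdra, at 8.21, 8.20 and 8.20, and vdrb, at 7.43, 7.23 and 7.06, were closer. Of 14 vitamin D genes cyp24a1 alone was past 1.5-fold. Thyroid hormone is activated in the brain by the deiodinase gene dio2, which stood at 8.34, 7.88 and 7.30, 2.05-fold lower than naive, while dio3b, which inactivates the hormone, differed by -0.36.

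In the cortisol axis list of 42 genes 16 were lower, 11 higher and 15 equal, with a median of 0. The factor gene klf9 read 9.93, 10.08 and 8.68 and the receptor cochaperone gene fkbp5 10.23, 10.56 and 9.14, and with dusp1 they were the 3 members past 2-fold. The cortisol-inactivating enzyme genes hsd11b2, at 7.29, 7.46 and 6.44, and hsd20b2, at 7.94, 7.87 and 7.22, were lower too. Oxytocin, oxt, was at 9.06, 9.90 and 10.00, above naive on both other arrays. The period gene per1a, which glucocorticoids also induce in mammals, was higher by 0.54.

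Neuropeptide genes stood mostly near their naive value: of 56 sleep, arousal and hypothalamic genes 12 were lower, 17 higher and 27 equal. Past 1.5-fold were pmchl, a melanin-concentrating hormone gene, at 7.94, 7.91 and 6.83, and the opioid precursor gene pdyn, at 7.21, 7.44 and 7.91. Outside this list, the urotensin-related peptide gene urp2, which in zebrafish is made by neurons that contact the cerebrospinal fluid, was at 7.62, 6.18 and 6.05, and its relative urp1 at 5.48, 5.39 and 4.58. On the fear-conditioned array urp2 was thus near its sleep-deprived and urp1 near its naive level. In the adenosine list of 28 genes, which bears on a metabolite tied to sleep need, the nucleotidase gene nt5c2l1 read 9.21, 8.83 and 6.68, 5.77-fold lower than naive. The deaminase gene ada, at 7.28, 7.39 and 6.67, was past 1.5-fold, and nt5c2a and nt5c2b differed by -0.42 and -0.26.

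Blood genes bear on how much red cell RNA was in the samples, but only in part. The hemoglobin genes hbaa1 and hbba1 had no value, and 27 of 39 genes written in the list were measured. The gene nt5c2l1 and the membrane skeleton gene epb41b, at 5.97, 5.60 and 4.83, are on the list of 27 red blood cell genes, of which 14 were lower, 6 higher and 7 equal. The heme synthesis gene alas2 was at 7.64, 7.57 and 7.33. The list mean was 6.39 on the naive and 6.17 on the sleep-deprived array, and its median of -0.01 turned to 0.03 with centring. Kell, KEL, a peptidase of red cell membranes in mammals, read 6.41, 6.48 and 4.67. The part of red cells in the values of nt5c2l1, epb41b and KEL was not tested.

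Skin genes were lower more often than higher, mostly by less than 1.5-fold. The epithelial cadherin gene cdh1 read 5.12, 6.4 and 3.87 and epcam 4.15, 5.47 and 3.59, each highest on the fear-conditioned array, and the keratin gene krt4 read 5.88, 6.78 and 5.30. The calcium-binding protein gene s100s went the other way, at 5.35, 5.68 and 6.98, 3.09-fold higher than naive. Of 49 skin and epithelium genes 29 (59.2%) were lower, 3 (6.12%) higher and 17 equal, beside 30.9% lower and 24.8% higher over all genes. Past 2-fold were 1 lower and 1 higher. Past 1.5-fold were 3 lower (6.12%) and 1 higher (2.04%), beside 2.43% and 0.484% of all genes. The list median of -0.04 turned to 0.01 with centring. The list mean was 5.46 on the naive and 5.32 on the sleep-deprived array.

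Genes higher on the sleep-deprived array were fewer and mostly less than 2-fold apart. The most positive difference, 1.75, was that of LOC100149475, a locus without a gene name, at 4.31, 5.59 and 6.06. Light-detecting genes of the pineal organ and of photoreceptors supplied several of the rest. The pineal opsin gene exorh read 6.58, 6.78 and 7.88, 2.47-fold higher than naive. The phosphodiesterase subunit gene pde6gb, a part of the light-response cascade, was at 7.13, 7.35 and 8.17, the recoverin gene rcvrnb at 7.25, 7.18 and 8.15, and the cyclic nucleotide-gated channel gene cnga1a at 3.75, 3.75 and 4.65. The retinoid carrier genes rbp4l, at 5.81, 5.98 and 6.62, and rbp3, at 5.94, 5.97 and 6.49, were higher by less. For these 6 genes the sleep-deprived level stood above both other arrays.

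Over the 69 photoreceptor and pineal genes 33 were higher, 9 lower and 27 equal, 2 passed the 2-fold limit upward and 5 the 1.5-fold limit, with a median of 0 and a mean of 0.15. Those 5 were exorh, pde6gb, cnga1a, rbp4l and saga, the last at 5.45, 5.22 and 6.15. The gene rcvrnb is not in this list. The retinal cone opsin gene opn1lw1, at 4.29, 4.41 and 4.12, was not higher. Apart from exorh, no member of the non-visual opsin list of 23 was past 1.5-fold, and opn8a, at 4.22, 4.55 and 4.55, came next. How much pineal tissue each brain sample held was not tested.

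Genes for membrane proteins of neurons were higher by small amounts, many of them at once. Of 36 glutamate receptor genes 30 were higher, 2 lower and 4 equal, with a median of 0.12. Of 40 genes of GABA and glycine transmission 27 were higher and 6 lower, with a median of 0.10. Of 51 sodium and calcium channel genes 34 were higher and 4 lower, with a median of 0.07, and of 26 protocadherin genes 20 were higher and 2 lower, with a median of 0.17. The same shares over all genes were 24.8% higher and 30.9% lower. Those shares are not matched for signal: exact equality held for 64.3% of the dimmest and 26.9% of the brightest bin. The mean naive level was 8.00 for the glutamate receptor list and 8.25 for the GABA and glycine list. At least 1.5-fold higher were 1 of 36 glutamate receptor genes (2.78%) and 2 of 51 sodium and calcium channel genes (3.92%), beside 0.484% of all genes. At least 1.5-fold lower was 1 member of each of these lists (2.78% and 1.96%), beside 2.43% of all genes. The GABA and glycine list and the protocadherin list had 0 members past 1.5-fold in either direction.

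Some of the named members of these families follow. The metabotropic glutamate receptor gene grm7, which lies on presynaptic terminals, read 8.75, 9.03 and 9.41, grm6a 6.75, 6.85 and 7.20, and the kainate receptor gene grik2 8.52, 8.53 and 8.85. The AMPA receptor genes gria4a, at 8.50, 8.52 and 8.76, and gria4b, at 9.04, 8.97 and 9.31, were higher by 0.26 and 0.27. One NMDA receptor gene was lower, grin2ca at 7.83, 7.27 and 7.19. The GABA-A receptor genes gabra2b, at 9.27, 9.42 and 9.77, gabra3, at 9.25, 9.46 and 9.61, and gabra4, at 9.91, 10.01 and 10.16, were higher, as was the glycine receptor gene glra3 by 0.39. In the lower direction, the degrading enzyme gene abat, at 11.14, 10.93 and 10.83, differed by -0.32 and the glycine transporter genes slc6a9 and slc6a5 by -0.39 and -0.29.

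Low-threshold calcium channels, which support burst firing and thalamic sleep rhythms in mammals, were among the higher genes. The T-type subunit gene cacna1ia was at 7.27, 7.55 and 7.90, its duplicate cacna1ib at 6.90, 7.01 and 7.35, and cacna1g was higher by 0.46. The P/Q-type genes cacna1aa and cacna1ab, of presynaptic terminals, were higher by 0.41 and 0.42, and the auxiliary subunit gene cacna2d3a by 0.65. A sodium channel beta subunit gene, scn4bb, was lower, at 9.19, 8.88 and 8.45. Among 91 potassium channel genes 34 were higher, 12 lower and 45 equal, with kcnd1 at 6.95, 7.11 and 7.48 and kcnk3a, a leak channel gene, at 8.29, 8.39 and 7.69.

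The protocadherin gene pcdh1b read 9.10, 9.40 and 9.66, pcdh9 9.94, 10.04 and 10.41, and pcdh15b 6.77, 6.89 and 7.29. Of 65 genes of synaptic plasticity 40 were higher, 7 lower and 18 equal, with a median of 0.03, and camk2b2, a calcium-dependent kinase gene, was at 9.08, 9.21 and 9.60. The synaptic adhesion gene nrxn3a was at 8.96, 9.12 and 9.46. The general neuron list had 16 of 24 higher and 3 lower, with a median of 0.03 and a mean level of 9.55 on the naive and 9.63 on the sleep-deprived array. Synaptic vesicle genes had 31 of 60 higher and 13 lower, with a median of 0.01. The part of the overall neuron level in the receptor and channel values was not tested.

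**Figure D4:**
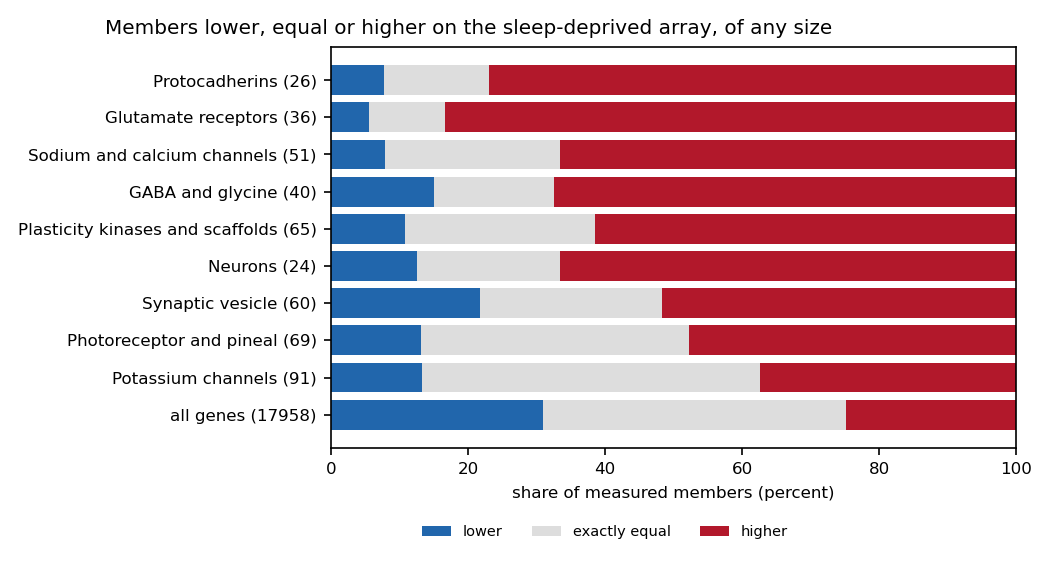
Share of measured members (horizontal axis, percent) that were lower (blue), exactly equal (grey) or higher (red) on the sleep-deprived array, by any amount, for 9 gene lists and for all 17958 genes (number of members in brackets). The red share is 24.8% for all genes and 83.3% for glutamate receptors, and the shares are not matched for signal level.

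A few transcription factor genes of regional neuron identity were also higher, and these were chosen after their values were seen. The level of pou4f2 was 7.19, 7.44 and 7.99, that of emx2 6.27, 6.61 and 7.01, and that of lhx9 8.49, 8.90 and 9.11. The remaining genes past 2-fold in the higher direction include the sodium pump gene atp1a1a.4, at 4.87, 4.54 and 5.95, the mitochondrial glutamate carrier gene slc25a22b, at 4.0, 4.40 and 5.01, the caspase gene casp8l1, at 4.03, 4.83 and 5.09, and the fin-fold protein gene and1, at 5.95, 5.37 and 6.99. The zinc-finger gene znf1173 went from 2.88 and 2.91 to 4.1, so its naive and fear-conditioned levels were below the dim limit. The Wnt target gene sp5l, at 5.15, 5.58 and 6.15, was just short of 2-fold.

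Clock genes were not shifted as a block. Repressors had 11 of 24 higher and 9 lower, with the period gene per3 at 9.02, 9.28 and 9.75 and per1a at 6.83, 6.71 and 7.37. The bZIP factor genes nfil3-5, at 8.16, 8.53 and 7.02, nfil3-2, at 7.63, 7.74 and 6.84, and nfil3-6, at 10.08, 10.66 and 9.52, were each lowest on the sleep-deprived array. The activators had 10 of 16 lower and 5 higher, with a median of -0.04 that turned to 0.00 with centring, and rorcb, an orphan receptor gene, was furthest at 7.69, 7.81 and 7.04.

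Several gene groups gave no members past 2-fold. Cell cycle genes had 34 of 53 equal, 11 lower and 8 higher, and the 16 neurotrophin genes 0 past 1.5-fold. Monoamine genes had 1 of 52 past 1.5-fold, the dopamine receptor gene drd3 at 6.05, 5.99 and 6.64, and acetylcholine genes 0 of 26. The 68 measured ribosomal protein genes were shifted by a small amount, with 54 lower, 4 higher, a median of -0.08 and 0 past 1.5-fold. Hox genes, which mark the hindbrain and spinal cord, had 16 of 34 lower, 3 higher and 2 at least 1.5-fold lower. Those 2 were hoxc6a and hoxc5a, at -0.69 and -0.66.

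Zebrafish carry many genes as a pair of copies, written a and b, left by a genome duplication of their ancestors. Pairs were taken here by symbol alone, as names that differ only in a last a or b. Their descent was not checked, so some pairs may be relatives of another origin. Both copies, in this sense, were measured in 2350 pairs. In 30 pairs at least 1 copy was 2-fold or more lower, and in 1 of these, nfe2l2a and nfe2l2b, both were. In 2 more pairs, igfbp1 and slc3a2, the other copy was at least 1.5-fold lower, so this held for 3 of the 30 other copies, or 10%, beside 2.53% of all 4700 copies in these pairs. The other copy was within 0.25 of 0 in 17 of the 30, or 56.7%, beside 85.3% of all copies.

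Examples of pairs with unlike differences follow, chosen after their values were seen. The copies atf5a and atf5b differed by -0.01 and -1.93, socs3b and socs3a by -0.26 and -1.89, and pdk2a and pdk2b by -0.43 and -1.93. The translation kinase copy mknk2a was at -0.01 and mknk2b at -1.13, and the membrane metalloproteinase copy mmp14a at -0.10 and mmp14b at -1.22. The ligand copies pdgfba and pdgfbb were at -1.36 and 0, and pdgfbb read 7.76 on all 3 arrays. On the naive array the copy with the smaller difference was the dimmer one for atf5a, at 8.61 beside 11.12 for atf5b. The same held for mknk2a, mmp14a and socs3b. It was the brighter copy for pdgfbb, at 7.76 beside 5.47 for pdgfba, and for pdk2a. In 2 pairs not listed here, the copy without a difference was dim, with txnipb at 3.95 and ppp1r3c2b at 4.23.

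**Figure D5:**
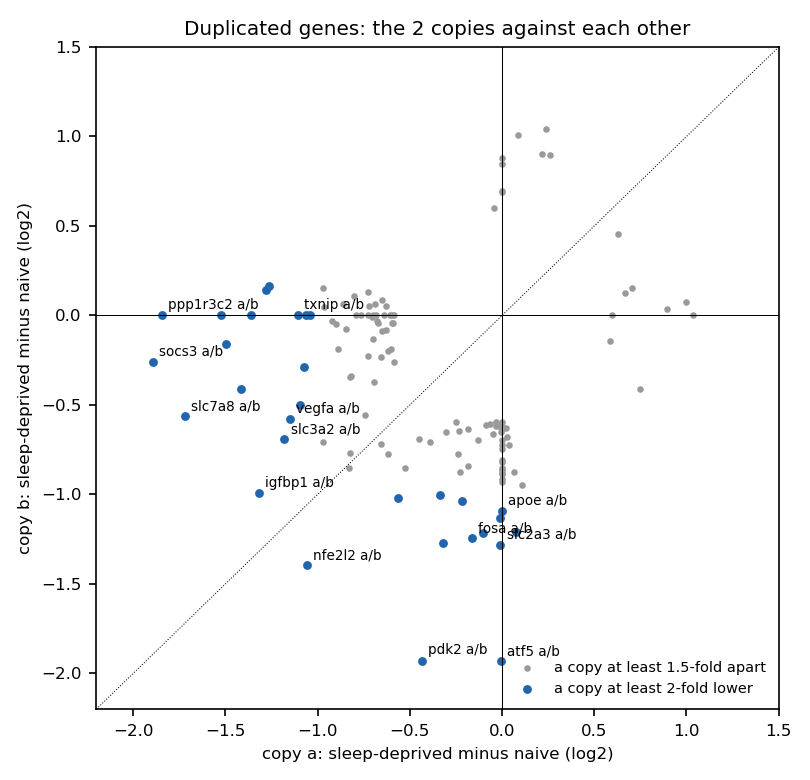
Differences of copy a (horizontal axis) and copy b (vertical axis), sleep-deprived minus naive in log2, for gene pairs matched by symbol alone. Shown are pairs with at least 1 copy 1.5-fold or more apart, with blue points where a copy was at least 2-fold lower. The dotted line marks equal differences. Of the blue points 17 of 30 have the other copy within 0.25 of 0, beside 85.3% of all copies, and nfe2l2, igfbp1 and slc3a2 lie nearer the dotted line.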

How the data were processed

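Each of the 3 arrays holds brain RNA of 1 labelled group. The deposited table gives 1 log2 value per probe set and array, which the authors had already normalized between arrays, since all 3 share a median of 4.99. The method is unknown here, the base of the logarithm is unstated and was read as 2 from the range of the values, and a shift common to all genes cannot be seen. RNA was extracted, converted to sense cDNA and labelled with biotin, per the labels' protocols.

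Of 75212 probe sets, 20806 had 1 symbol, 855 had several and 53551 had none, and the last 2 kinds were not used for genes. A RefSeq table gave the current symbol by Entrez identifier for 20323 probe sets, and the other 483 have the symbol of the array annotation. Differences are sleep-deprived minus naive, as deposited. Of 20 genes at least 1.5-fold apart with several probe sets, all probe sets had the same sign in 17. The dim limit is a quantile, not a measured background.

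Genes were described in 66 lists, which share members and were chosen, like the members, with earlier results of these data known. Named are the 30 most negative and 20 most positive genes without clone names, other genes at least 2-fold apart, up to 6 members of each list (all where 12 or fewer were measured), cell type markers and copies of named genes. Of the 120 lower genes 58 are in a list and 17 have clone or locus names, and of the 17 higher genes 8 and 4. Alternatives were centring, quantile normalization, the brightest probe set, other dim filters, a floor at the dim limit, RefSeq-matched genes alone and a 1.5-fold threshold. Counting was tested on simulated data. Python 3.11.15, numpy 2.4.6 and pandas 2.3.3 were used.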

Additional observations from a re-analysis of the deposited data

How the results depend on the processing

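The count of genes at least 2-fold lower was 120 and stayed between 107 (each array centred on its median over named genes) and 121 under the alternatives other than the threshold, and the count of genes at least 2-fold higher was 17 and stayed between 15 and 19. At 1.5-fold the counts were 436 lower and 87 higher, by the construction of a lower limit. Of 891 named genes, centring took 13 below 2-fold and 2 past it, quantile normalization 1 and 1, the brightest probe set 3 and 1, and a floor at the dim limit took 4 below. No named gene changed sign under these 4 settings while past 2-fold. Centring moved the median of all genes by 0.04, and the medians of 10 lists near 0 turned sign with it: the insulin-like growth factor, glycolysis, class I, Nrf2, clock activator, radial astroglia, endothelium, red blood cell, skin and iron lists. No paired analysis was possible because each group has 1 array, and no array could be left out for the same reason. Probe sets dimmer than 3.45 carry no measured background, so differences of dim genes are the least certain.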

Other observations

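Several lower genes belong to none of the lists, and their levels are given as values only, in the order naive, fear-conditioned and sleep-deprived. The largest difference of all, -2.94, was that of ociad2, which encodes a protein with an OCIA domain, at 6.53, 7.31 and 3.59. The cystatin gene cst14b.1, a protease inhibitor gene, read 7.83, 7.78 and 6.16, and the lysozyme gene lygl2 4.90, 3.62 and 3.38, the last value below the dim limit of 3.45. The opioid growth factor receptor gene ogfr2 was at 6.70, 6.49 and 5.15. The signalling adaptor gene TIFA, which links receptors to NF-kappaB, was at 6.97, 6.77 and 5.53, and the tumour necrosis factor receptor gene tnfrsf9a at 6.92, 7.09 and 5.87. The hexosamine synthesis gene gfpt2 read 6.44, 6.37 and 5.21. The collagen receptor gene ddr2a was at 6.39, 6.52 and 5.32 and the cell cycle regulator gene rgcc at 7.42, 8.13 and 6.13. For tnfrsf9a, ddr2a and rgcc the fear-conditioned level was the highest of the 3, and for the other genes in this paragraph except ociad2 the naive level was.

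Higher on the sleep-deprived array and outside the lists were OTOA, the gene of otoancorin, a protein of the inner ear, at 5.35, 6.33 and 6.59, the peptidase gene ovch1 at 4.88, 5.72 and 5.96, and zpax2, of the egg coat family, at 4.46, 4.78 and 5.49. The vitamin B6 kinase gene pdxka was at 5.80, 6.19 and 6.80. For these 4 genes the fear-conditioned level lay between the other 2.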
